A study of Drosophila melanogaster with 6 samples.

Results

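The odorant-binding protein genes of the fly antenna were described in control females and in females in which *Ecdysone-induced protein 93F* (E93) was targeted by RNA interference. They were taken by symbol, as every gene named Obp followed by a number together with *lush*, and made up 52 of the 17698 genes listed in the deposited counts. Of these, 28 had a mean of 10 or more counts over the 6 samples and are described gene by gene, while 24 had fewer and 6 of those had 0 counts in all 6 samples. The antennae came from female *Drosophila melanogaster* 2 to 5 days old, reared at 25 °C, with 350 females of each genotype for each pair of replicates and 3 biological replicates per group. Both genotypes carried 1 copy of *peb*-Gal4, the driver that activates the transgenes where *peb* is expressed, and of UAS-Dcr2, which strengthens RNA interference, so the controls also carried the driver and the extra *Dcr-2*. The second element was either UAS-E93KK108140, the E93 hairpin, or VIE-260B, in 1 copy. The genotype text attaches the hairpin to the control, whereas the sample titles and the E93RNAi field of the labels say the opposite, and these were followed.

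Odorant-binding proteins are small secreted proteins of insects, most of them held together by disulphide bonds between conserved cysteines. In the antenna they are made by the non-neuronal support cells that surround the olfactory neurons, and are released into the lymph that fills each sensory hair (sensillum). They bind odorants and other small hydrophobic molecules and can carry or buffer them on the way to the receptors of the neuron. The hairs fall into trichoid, intermediate, basiconic and coeloconic classes, and further sensilla lie inside the sacculus, a pit in the antenna that houses humidity and temperature neurons.

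The total over genes was 16639918 to 18400979 counts per sample. Counts of the targeted gene *Eip93F* were 6070, 6993 and 6875 in the controls (replicates 1 to 3, here and below) and 5954, 6021 and 5876 in E93RNAi, so its log2 fold change was -0.19 ± 0.048 (SE; adjusted p = 0.0119, edgeR's quasi-likelihood test). It missed the threshold when control replicate 2 (adjusted p = 0.0564) or E93RNAi replicate 3 (adjusted p = 0.0552, both edgeR) was left out. Gene counts cannot separate reads of the hairpin from reads of the endogenous gene. In the whole antenna, a lower level from fewer cells of a type and one from less RNA per cell cannot be told apart.

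Odorant-binding protein genes included the most abundant transcripts of the antenna. By summed counts *Obp19d* ranked 1 and *Obp83a* ranked 2 of all listed genes, and 8 more, *Obp83b*, *Obp28a*, *Obp19a*, *lush*, *Obp56d*, *Obp69a*, *Obp84a* and *Obp59a*, ranked between 12 and 129. These 10 genes supplied 99.3% of all odorant-binding protein counts in control and 99.0% in E93RNAi. The next gene, *Obp57c*, ranked 1116.

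Levels of different genes were compared per kilobase of annotated exon, in CPM, which are counts scaled by library size with TMM factors. In control *Obp19d* stood at 15955 ± 691.3 CPM per kilobase (SD, n = 3), *Obp83a* at 10886 ± 213.8 and *Obp83b* at 9235 ± 502.4. *Obp19a* followed at 5571 ± 83.9 and *Obp28a* at 5267 ± 200.1 CPM per kilobase. *Obp69a* (2968 ± 163.2), *lush* (1999 ± 72.6), *Obp56d* (1940 ± 94.5), *Obp84a* (1667 ± 92.8) and *Obp59a* (1312 ± 33.9 CPM per kilobase) completed the abundant set. Among these 10 genes only *lush* and *Obp56d*, neighbours in this order, had overlapping samples in control. Below *Obp57c* (375.1 ± 32.1) the levels dropped to 41.1 ± 4.35 CPM per kilobase for *Obp57b*, and most genes from *Obp58b* (11.3 ± 1.78) downwards overlapped with the next.

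**Figure D1:**
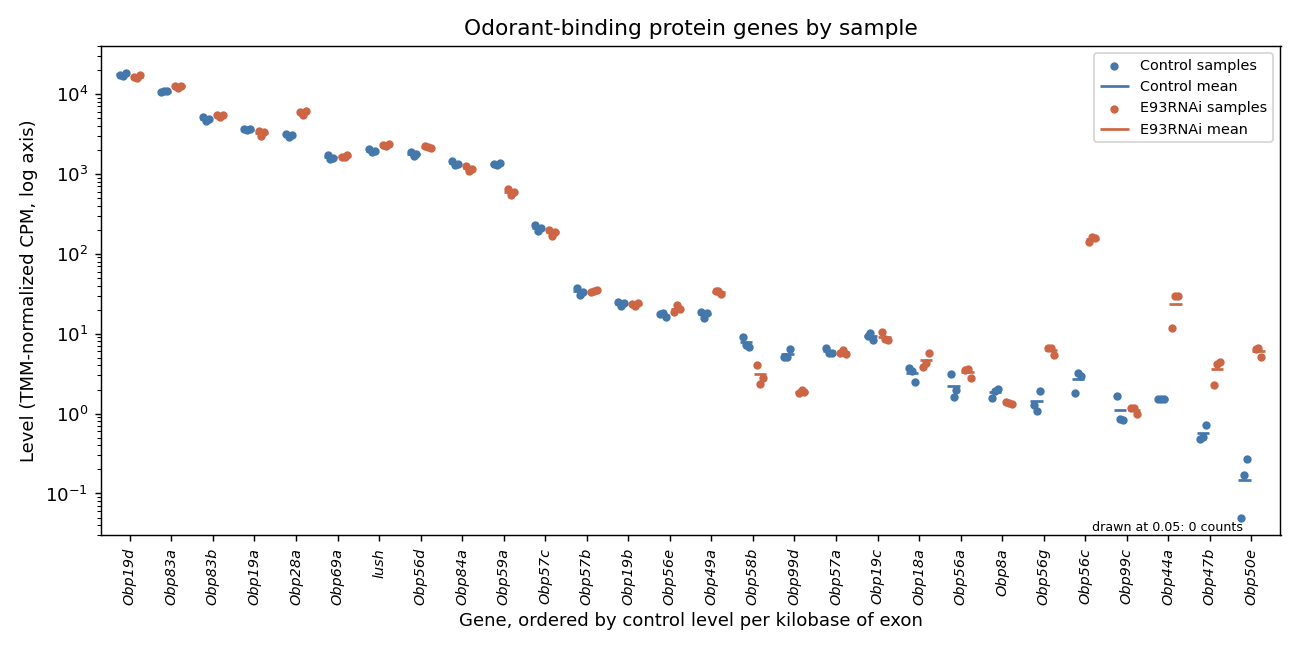
Level of the 28 odorant-binding protein genes with a mean of 10 or more counts, in TMM-normalized CPM on a log axis, with genes ordered by control level per kilobase of exon. Points are samples (3 control in blue, 3 E93RNAi in orange), short lines are group means, and the 1 sample with 0 counts (*Obp50e*, control) is drawn at 0.05; *Obp56c*, *Obp44a* and *Obp50e* stand farthest apart between the groups, and *Obp28a* and *Obp59a* are the abundant genes that separate most.

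Between the groups, 14 of the 28 tested genes passed the threshold of 0.05 on the adjusted p-value (edgeR), 10 of them higher and 4 lower in E93RNAi. Among all 9237 tested genes 24.3% passed, 13.8% higher and 10.5% lower. With the replicate number as a block 19 genes passed, against 26.3% of all tested genes. The samples of the groups did not overlap for 19 of the 28, against 37.5% of all tested genes. All 28 genes with a mean of 10 or more counts were tested and none of the other 24 was. *Obp50e* and *Obp47b* reached the filter's level in all samples of E93RNAi but not of control, so they could only be tested because they were high in 1 group. The median log2 fold change of the 28 genes was 0.087, beside 0.00028 for all tested genes, and their median absolute log2 fold change was 0.27, beside 0.11. Changes of at least 1 on the log2 scale were seen in 8 genes, 5 up and 3 down, where 5.01% of all tested genes passed with a change of that size.

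**Figure D2:**
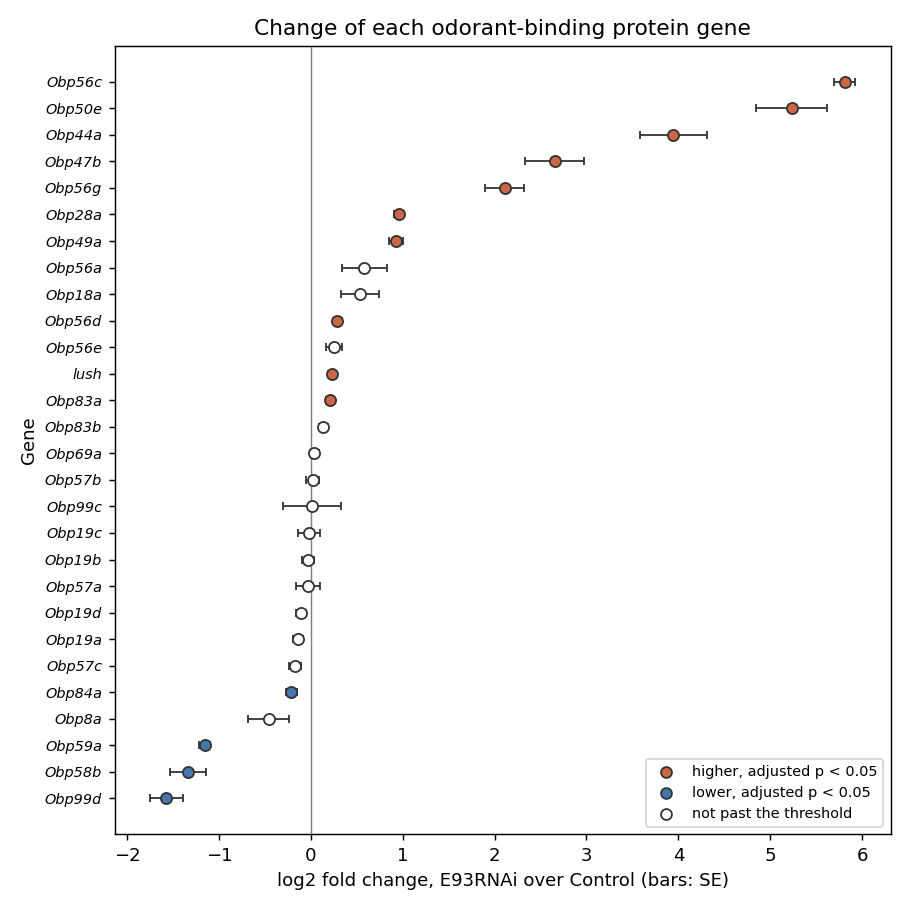
Log2 fold change of E93RNAi over control for the 28 tested genes, with standard errors as bars and genes ordered by change. Filled points passed the threshold of 0.05 on the adjusted p in edgeR (orange higher, blue lower); the values run from -1.57 for *Obp99d* to 5.81 for *Obp56c*, and the open points are the 14 genes that did not pass.

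The odorant-binding proteins of the trichoid and intermediate hairs were slightly higher in E93RNAi or did not pass the test. *lush* encodes the protein required in trichoid hairs for the normal response to the male pheromone 11-cis-vaccenyl acetate. It had 2037, 1904 and 1929 CPM in the controls, against 2296, 2234 and 2358 CPM in E93RNAi. Every E93RNAi sample lay above every control sample, and the log2 fold change reached 0.23 ± 0.045 (SE; adjusted p = 0.00238, edgeR).

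*Obp83a* and *Obp83b* (also known as OS-F and OS-E) are a pair of related genes, expressed together in trichoid and intermediate hairs and also in some basiconic hairs. *Obp83a* had 10498, 10903 and 10800 CPM in control and 12583, 11989 and 12717 CPM in E93RNAi. The groups did not overlap and the log2 fold change came to 0.21 ± 0.045 (SE; adjusted p = 0.00408, edgeR). *Obp83b* had 5134, 4604 and 4890 CPM in control and 5418, 5166 and 5498 CPM in E93RNAi. Its groups did not overlap either, but the log2 fold change of 0.14 ± 0.051 (SE) missed the threshold (adjusted p = 0.0741, edgeR), and it passed in 4 of 15 alternatives, with the replicate block (adjusted p = 0.0163, edgeR), library totals (adjusted p = 0.0280, edgeR), DESeq2 (adjusted p = 0.0391) and without control replicate 1 (adjusted p = 0.0308, edgeR). The difference in change between the pair was not tested.

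*Obp69a*, a trichoid protein linked in flies to responses to the same pheromone, was the member of this class with the smallest difference. It had 1720, 1548 and 1594 CPM in control and 1642, 1637 and 1707 CPM in E93RNAi, and the groups overlapped (log2 fold change 0.036 ± 0.049 SE, adjusted p = 0.662, edgeR). Its exons overlap *CG32104* on the opposite strand, at 91.4 CPM in the controls against 102.0 in E93RNAi (adjusted p = 0.0270, edgeR). The receptors of the neurons in these hairs moved in both directions, where 13.8% of all tested genes were higher and 10.5% were lower. Of 6 trichoid receptor genes 5 were lower and 1 was higher, and their summed level fell from between 260.5 and 279.9 CPM in control to between 69.5 and 77.5 CPM in E93RNAi. The 1 higher gene was *Or67d*, the receptor for the pheromone, which averaged 47.0 ± 3.17 CPM in the controls, against 61.5 ± 4.81 CPM in E93RNAi (SD, n = 3; log2 fold change 0.39, adjusted p = 0.000874, edgeR). Of 6 receptor genes of the intermediate hairs 4 were higher and 1 was lower, with summed levels of 140.8 to 152.5 CPM in control and 195.4 to 199.2 CPM in E93RNAi. The 1 lower gene was *Or83c*, from a mean of 21.5 to 0.701 CPM, and the largest fold rise was that of *Or19a*, from 3.04 to 23.2 CPM.

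*Obp28a*, an abundant protein of basiconic hairs, showed the largest rise among the abundant genes. It is a gene of 1 exon on the minus strand of arm 2L (BDGP6, 2L:7496791-7497365). Its level was 3133, 2905 and 3047 CPM in the controls, against 5907, 5540 and 6187 CPM in E93RNAi. The lowest E93RNAi sample was well above the highest control sample, and the mean rose 1.94-fold (log2 fold change 0.96 ± 0.052 SE, adjusted p = 5.87e-08, edgeR). In control its level per kilobase was number 5 in the family, below *Obp19a*. In E93RNAi it was number 3 at 10223 ± 564.6 CPM per kilobase (SD, n = 3), with samples that overlapped those of *Obp83b* at 10153 ± 328.2.

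The receptors of basiconic neurons are given beside it. Among all tested genes 13.8% were higher and 10.5% were lower. Of the 9 tested receptor genes of the large basiconic hairs 7 were lower and 2 did not pass. Their summed level was 1175 to 1228 CPM in control and 871.4 to 896.9 CPM in E93RNAi. The largest fall was that of *Or85b*, from a mean of 76.7 CPM in control to 0.582 CPM in E93RNAi. Of the 15 tested receptor genes of the small basiconic hairs 6 were higher and 3 were lower, with summed levels of 693.8 to 712.6 CPM in control and 810.1 to 854.5 CPM in E93RNAi.

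*Obp84a* (also known as PBPRP4) is expressed in coeloconic hairs, whose neurons mostly use ionotropic receptors. It had 1449, 1310 and 1327 CPM in control and 1259, 1103 and 1169 CPM in E93RNAi. The groups did not overlap, and the log2 fold change came to -0.21 ± 0.057 (SE; adjusted p = 0.0179, edgeR). The call was lost without control replicate 1 (adjusted p = 0.0652), without E93RNAi replicate 2 (adjusted p = 0.0762) and without E93RNAi replicate 3 (adjusted p = 0.0529, all edgeR). *Dtwd2*, which shares exon sequence with it on the opposite strand, had a mean of 73.3 counts beside 22292 for *Obp84a* and did not pass (3.66 against 4.67 CPM, adjusted p = 0.115, edgeR). In the same comparison, where 24.3% of all tested genes passed, 6 of 10 coeloconic receptor genes were higher and 4 were lower. Their summed level was 543.4 to 569.7 CPM in control and 1017 to 1052 CPM in E93RNAi, the opposite direction to *Obp84a*. The largest gains in mean level were those of *Ir75a* (191.76 to 404.55 CPM), *Ir75b* (83.16 to 254.83 CPM) and *Ir75c* (45.49 to 221.68 CPM). The 4 lower genes went in the direction of *Obp84a*, among them *Ir84a* (38.92 to 0.15 CPM) and *Ir92a* (34.98 to 0.338 CPM). The class thus moved in both directions.

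*Obp59a* fell most among the abundant genes. Its protein is found at humidity-sensing neurons of the sacculus, and flies that lack it respond abnormally to humidity. It had 1338, 1288 and 1354 CPM in control and 656.3, 546.1 and 587.0 CPM in E93RNAi. Every E93RNAi sample lay far below every control sample, with a mean 2.22-fold lower (log2 fold change -1.15 ± 0.061 SE, adjusted p = 4.55e-08, edgeR). Its share of all odorant-binding protein counts went from 2.75% ± 0.00539 in control to 1.15% ± 0.0905 in E93RNAi (SD, n = 3).

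*Obp58b* lies 917 bases downstream of *Obp59a* on the same strand (BDGP6, *Obp59a* at 2R:22702695-22703786 and *Obp58b* at 2R:22704704-22705639, plus strand), and fell by a similar factor from a far lower level. It had 9.19, 7.26 and 6.90 CPM in control and 4.10, 2.35 and 2.82 CPM in E93RNAi. The groups did not overlap (log2 fold change -1.33 ± 0.20 SE, adjusted p = 0.000277, edgeR). *CG30259* shares exon sequence with *Obp59a* on the opposite strand and was lower as well, at 4.58 CPM in control and 2.15 CPM in E93RNAi (log2 fold change -1.09 ± 0.19 SE, adjusted p = 0.00115, edgeR). It is not stated whether counting used strand, so reads from the shared sequence could have gone to either gene or been left out as ambiguous. *CG30259* had a mean of 59 counts beside 16843 for *Obp59a*, and the mean of *Obp59a* fell by 730.2 CPM. The part of the shared sequence in these changes was not tested. Of the 4 receptor genes listed for the sacculus, *Ir40a*, a receptor of dry-sensing neurons, was lower (98.9 ± 3.89 against 67.1 ± 1.66 CPM; edgeR log2 fold change -0.56 with adjusted p = 1.99e-06). *Ir64a*, an acid-sensing receptor, was higher (127.5 ± 1.04 against 152.0 ± 1.89 CPM; edgeR log2 fold change 0.25 with adjusted p = 0.000391). The rest of the 4 did not pass, and 24.3% of all tested genes did.

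*Obp19d* (also known as PBPRP2), found outside the lymph of olfactory hairs in the space under the cuticle, was the most abundant gene and did not pass the test. It had 17480, 16852 and 18367 CPM in control and 16222, 15648 and 17103 CPM in E93RNAi, and the groups overlapped (log2 fold change -0.11 ± 0.051 SE, adjusted p = 0.175, edgeR). Each E93RNAi sample was below the control sample of the same number, and with the replicate block the gene passed (adjusted p = 0.0388, edgeR). As a share of odorant-binding protein counts it was 36.4% ± 0.855 in control and 31.6% ± 0.499 in E93RNAi (SD, n = 3).

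The 2 other abundant genes were given no sensillum class here. *Obp56d* had 1871, 1697 and 1797 CPM in control and 2234, 2186 and 2129 CPM in E93RNAi, without overlap (log2 fold change 0.29 ± 0.048 SE, adjusted p = 0.000705, edgeR). *Obp19a* had 3611, 3520 and 3616 CPM in control and 3436, 3016 and 3301 CPM in E93RNAi. It was lower in every E93RNAi sample but missed the threshold (log2 fold change -0.14 ± 0.052 SE; edgeR adjusted p = 0.0740), and it passed in 4 of 15 alternatives, with the replicate block (adjusted p = 0.0205, edgeR), DESeq2 (adjusted p = 0.0267), no filter on low counts (adjusted p = 0.0356, edgeR) and without E93RNAi replicate 1 (adjusted p = 0.0166, edgeR).

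The family as a whole took 4.81%, 4.64% and 4.87% of gene counts in control replicates 1 to 3 and 5.20%, 5.02% and 5.42% in E93RNAi replicates 1 to 3. Every E93RNAi sample was above every control sample, and the means were 4.77% ± 0.115 and 5.21% ± 0.203 (SD, n = 3). Gains summed to 0.652 percentage points and losses to -0.209 percentage points. *Obp28a* gained 0.293 and *Obp83a* 0.191 percentage points, which were the largest gains. *Obp19d* changed by -0.0924 ± 0.0650 and *Obp59a* by -0.0712 ± 0.00355 percentage points (SE of the difference), the largest losses. *Obp19d* overlapped between the groups in CPM and did not pass the test. *Obp28a* went from 6.28% ± 0.136 to 11.4% ± 0.223 of odorant-binding protein counts (SD, n = 3). *Obp56c*, with the largest fold change, gained 0.0151 percentage points of gene counts.

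**Figure D3:**
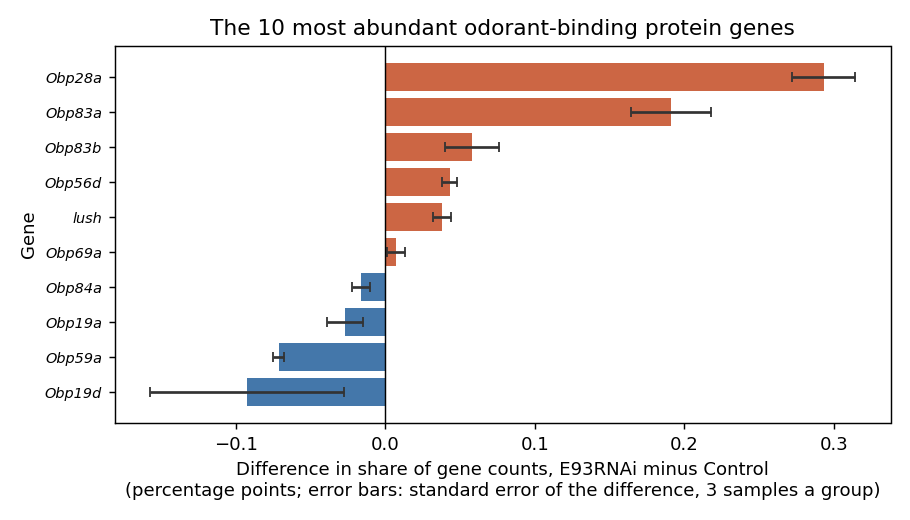
Difference in the share of gene counts between the group means, E93RNAi minus control, in percentage points, for the 10 most abundant odorant-binding protein genes. Bars start at 0 and error bars are the standard error of the difference over 3 samples a group; *Obp28a* (0.293) and *Obp83a* (0.191) extend farthest to the right and *Obp19d* (-0.0924) farthest to the left.

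The largest fold changes were rises of genes that were scarce in control antennae. *Obp56c* (BDGP6, 2R:19699995-19701124, minus strand) was counted at 30, 57 and 54 reads in the controls, against 2368, 2892 and 2869 reads in E93RNAi. This corresponds to 2.68 ± 0.756 CPM and 151.9 ± 11.9 CPM (SD, n = 3), a ratio of 56.7 (log2 fold change 5.81 ± 0.11 SE, adjusted p = 6.25e-12, edgeR). Per kilobase it moved from number 24 of the 28 genes in control to number 12 in E93RNAi, between *Obp57c* and *Obp49a*, with samples that overlapped neither.

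*Obp50e* (BDGP6, 2R:14374462-14375385, minus strand) was counted at 0, 3 and 5 reads in the controls, against 111, 117 and 93 reads in E93RNAi. The ratio of the pooled counts was 39.2, with an exact 95% interval of 19.7 to 91.6 that covers counting error only. Its log2 fold change was 5.23 ± 0.38 (SE; adjusted p = 7.85e-07, edgeR), and it was 5.98 without control replicate 3 (adjusted p = 5.84e-06, edgeR), a fold over 1.5 times larger. Without control replicate 1 it was 4.70 (adjusted p = 3.36e-06, edgeR). *Obp50e* passed the filter only through its level in E93RNAi, so these p-values are not independent of that selection.

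*Obp44a*, a gene also expressed in glia of the fly brain, was counted at 25, 27 and 28 reads in the controls, against 202, 523 and 549 reads in E93RNAi. All E93RNAi samples were above control, and replicate 1 stood well below the other two, at 11.8 CPM against 29.2 and 29.8 CPM. The log2 fold change was 3.94 ± 0.37 (SE; adjusted p = 6.36e-06, edgeR) and lay between 3.74 and 4.26 over the 15 alternatives. *Obp44a* shares exon sequence with *Pabp2* on the opposite strand, which was measured at 49.9 CPM in the controls against 45.4 CPM in E93RNAi (adjusted p = 0.160, edgeR).

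*Obp47b* was counted at 8, 9 and 13 reads in the controls, against 39, 75 and 82 reads in E93RNAi, again with replicate 1 the lowest of its group (log2 fold change 2.65 ± 0.32 SE, adjusted p = 5.83e-05, edgeR). It too passed the filter only through its level in E93RNAi. It shares exon sequence with *CG7741* on the opposite strand, which was measured at 26.5 CPM in the controls against 27.9 CPM in E93RNAi (adjusted p = 0.484, edgeR). *Obp56g* was counted at 21, 19 and 35 reads in the controls, against 112, 120 and 100 reads in E93RNAi (log2 fold change 2.11 ± 0.21 SE, adjusted p = 1.17e-05, edgeR). In each of these genes the groups were apart in every sample.

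*Obp49a*, known from taste hairs, where it takes part in the suppression of sweet taste by bitter compounds, was higher as well. It was counted at 306, 272 and 332 reads in the controls, against 580, 611 and 578 reads in E93RNAi, a mean of 17.4 ± 1.66 against 33.1 ± 1.57 CPM (SD, n = 3). The groups were clearly apart, and the log2 fold change reached 0.93 ± 0.078 (SE; adjusted p = 2.60e-06, edgeR). *Obp99d* went the other way, from 83, 90 and 119 counts in control to 31, 35 and 34 counts in E93RNAi (5.57 ± 0.824 and 1.87 ± 0.0740 CPM; log2 fold change -1.57 ± 0.18 SE, adjusted p = 3.37e-05, edgeR). It was the scarce gene that fell most.

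By level, 6 of the 10 genes with a mean of 10000 or more counts passed, 4 higher and 2 lower, with absolute log2 fold changes of at most 1.15. Of the 9 genes with 10 to under 100 counts 5 passed, 3 higher and 2 lower, and the median size of the log2 change over all 9 was 1.33. In the 7 genes with 100 to under 1000 counts this median was 0.031, and 2 passed, both higher. Between them lay *Obp56c*, which rose, and *Obp57c*. A gene with few counts needs a larger change to pass, so these groups of genes are not alike in what the test could find. *Obp50e* and *Obp47b*, both higher and with 10 to under 100 counts, could only be tested because they were high in E93RNAi. The shares of all tested genes that passed were not counted by level.

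The other 10 genes that did not pass had control levels between 1.11 and 33.8 CPM, apart from the more abundant *Obp57c*, which averaged 208.9 ± 17.9 CPM in the controls, against 185.3 ± 15.1 CPM in E93RNAi (SD, n = 3). *Obp57c* differed by -0.17 ± 0.069 on the log2 scale (SE; adjusted p = 0.0939, edgeR), and passed in 4 of 15 alternatives, with the replicate block (adjusted p = 0.00468), no filter on low counts (adjusted p = 0.0250), without control replicate 2 (adjusted p = 0.0244) and without E93RNAi replicate 1 (adjusted p = 0.0272, all edgeR). *Obp57b* (33.8 ± 3.58 and 34.2 ± 1.19 CPM), *Obp19b* (23.7 ± 1.52 and 23.2 ± 0.756), *Obp19c* (9.33 ± 0.923 and 9.18 ± 1.18) and *Obp99c* (1.11 ± 0.464 and 1.11 ± 0.113 CPM in control and E93RNAi) had absolute log2 fold changes under 0.05 and overlapping groups. *Obp99c* shares exon sequence with *Gycalpha99B* on the opposite strand, which had a mean of 1030 counts beside 19.3 for *Obp99c* and was lower in E93RNAi (64.0 against 53.1 CPM, adjusted p = 0.00547, edgeR), and the part of its reads in the few counts of *Obp99c* was not tested. Absolute log2 fold changes under 0.05 with overlapping groups were also seen for *Obp57a*, with 109, 99 and 104 counts in the controls against 97, 112 and 104 in E93RNAi. *Obp56e* (17.3 ± 0.893 and 20.6 ± 2.15 CPM) had no overlap between groups and missed the threshold (log2 fold change 0.25, adjusted p = 0.0556, edgeR), which it passed in 4 of 15 alternatives, with the replicate block (adjusted p = 0.0377), library totals (adjusted p = 0.0390), no filter (adjusted p = 0.0431) and without E93RNAi replicate 1 (adjusted p = 0.0230, all edgeR). Its exons overlap *asRNA:CR44509* on the opposite strand, listed at 0 counts in every sample. *Obp18a* (3.20 ± 0.613 and 4.62 ± 1.01 CPM), *Obp56a* (2.23 ± 0.782 and 3.32 ± 0.439) and *Obp8a* (1.85 ± 0.237 and 1.35 ± 0.0526 CPM) had log2 fold changes of 0.54, 0.58 and -0.46 with standard errors of 0.20 to 0.24 and adjusted p-values of 0.0794, 0.111 and 0.178 (edgeR). The groups did not overlap for *Obp18a* and *Obp8a* either, whereas they did for *Obp56a*. *Obp18a* passed without E93RNAi replicate 1 (adjusted p = 0.0349, edgeR) and without a filter on low counts (adjusted p = 0.0430, edgeR), and *Obp56a* without control replicate 1 (adjusted p = 0.0209, edgeR).

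The remaining 24 genes summed to 19, 21 and 21 counts in the controls, against 28, 45 and 35 in E93RNAi. The highest mean was 5 counts, for *Obp83cd*, so no gene lay close under the limit of 10 counts, and the gene just above it was *Obp99c* with a mean of 19.3 counts. The 6 genes at 0 counts in every sample were *Obp22a*, *Obp47a*, *Obp50b*, *Obp50c*, *Obp50d* and *Obp57d*. A count of 0 allows up to 3 counts, or 0.163 to 0.180 CPM in these samples. *Obp50b* and *Obp50c* share all their exons in the annotation, and *Obp57d* shares exons with *Cpr57A*, so reads of these genes could have been left out as ambiguous.

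In the genome, 33 of the 52 genes lay in 10 runs in which each gene was within 20000 bases of the next, and 29 of the 52 were on arm 2R. Of the 14 tested genes on 2R 7 were higher and 2 were lower, and the 6 tested genes on the X chromosome did not pass in edgeR. Of these 6, 2 had an unadjusted p-value under 0.05 (*Obp18a* and *Obp19a*), 1 passed in DESeq2 (*Obp19a*), and 2 passed in edgeR with the replicate block (*Obp19a* and *Obp19d*). The share of all tested genes that passed was not counted by arm, so these counts do not compare the arms. Differences in change between neighbours were not tested. *Obp59a* and *Obp58b* both fell, and the 4 genes from *Obp19a* to *Obp19d* did not pass. In the run from *Obp56a* to *Obp56f*, *Obp56c* rose by 5.81 on the log2 scale and *Obp56d*, 1799 bases away on the same strand, by 0.29, while *Obp56b*, next to *Obp56c*, had 1 count in all. In the run from *Obp50a* to *Obp50e*, *Obp50e* rose and *Obp50a* held 1 to 6 counts per sample. The 3 genes from *Obp57c* to *Obp57a*, at most 48 bases apart, did not pass. The nearest tested genes outside the family on either side of the 28 genes numbered 33, and 16 of them passed (48.5%, beside 24.3% of all tested genes). Their distances ran from 0 to 70953 bases. Those that passed include *CG30259*, *CG32104* and *Gycalpha99B*, which share exon sequence with a member. Of the 23 next to members that passed 11 did so (47.8%), and of the 16 next to members that did not pass 9 did so (56.2%), with some genes next to both. They were counted after the values had been seen.

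**Figure D4:**
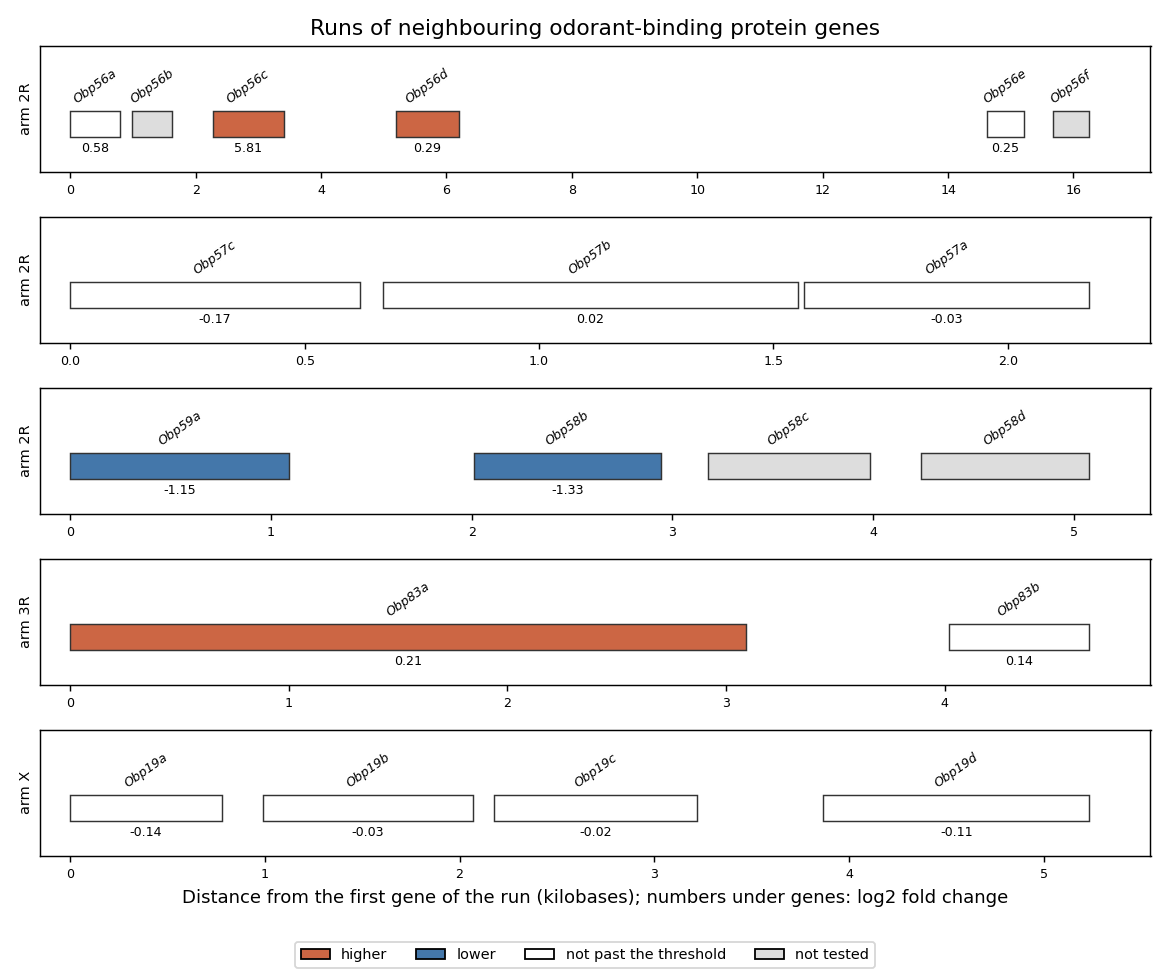
Runs of neighbouring odorant-binding protein genes with at least 2 genes described, drawn to scale as distance in kilobases from the start of the first gene of each run, with the log2 fold change of E93RNAi over control under each tested gene. Orange genes were higher, blue genes lower, white genes did not pass and grey genes were not tested; *Obp59a* and *Obp58b* are both blue, whereas *Obp56c* (5.81) and *Obp56d* (0.29) differ in size.

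Other genes of the support cells were counted beside the family. Of 8 genes for support cells of sensilla 3 were higher and 4 were lower, where 13.8% of all tested genes were higher and 10.5% were lower. *nompA*, which encodes a matrix protein made by the sheath cell that ties the neuron's dendrite to the cuticle, rose from a mean of 7.29 ± 0.181 CPM to one of 68.4 ± 5.53 CPM (SD, n = 3; log2 fold change 3.23, adjusted p = 3.11e-11, edgeR). *Su(H)*, a marker of the socket cell, was lower (log2 fold change -0.28, adjusted p = 0.00121, edgeR), as was *pros*, a marker of the sheath cell (-0.52, adjusted p = 7.40e-05, edgeR), and *sv*, of the shaft cell, did not pass (-0.11, adjusted p = 0.107, edgeR). Of 8 further secreted proteins and enzymes of the antenna 3 were lower (*a5*, *Est-6* and *Antdh*) and 5 did not pass. Their summed level was 29474 to 31434 CPM in control and 26181 to 27174 CPM in E93RNAi. The direction was opposite to that of the summed odorant-binding protein level, which was taken as a share of gene counts without TMM factors.

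Markers of other tissues were measured in the same fit, in which 24.3% of all tested genes passed. The 8 eye genes summed to 8.66 to 9.71 CPM in control and 15.8 to 17.7 CPM in E93RNAi, with *ninaE* and *Rh3* at or near 0, and 3 of 4 tested were higher. Most of this sum was *trp* (5.31 ± 0.739 CPM in control against 8.89 ± 0.751 in E93RNAi) and *ninaC* (2.44 ± 0.342 against 5.48 ± 0.728; SD, n = 3). *Rh4* was also higher (0.0766 against 0.809 CPM), and *Rh5* did not pass (0.788 against 0.616 CPM). The 7 receptor genes of the maxillary palp, the second olfactory organ, summed to 30.8 to 37.5 and 26.9 to 29.3 CPM, with 1 higher and 1 lower of 5 tested. The 6 fat body genes summed to 110.1 to 128.4 CPM in control and 103.0 to 132.1 CPM in E93RNAi, with *Lsp2* and *Fbp1* at or near 0. Most of this sum was *apolpp*, which encodes a lipoprotein of the blood, at 109.6 ± 4.78 CPM in control against 101.1 ± 7.40 in E93RNAi, followed by *Yp2* at 7.53 ± 2.25 against 8.47 ± 3.01 CPM (SD, n = 3), and 1 of 4 tested was higher, *Yp3*. The 4 haemocyte genes summed to 17.6 to 19.9 and 12.4 to 20.3 CPM, with *He* at or near 0 and the 3 tested did not pass (adjusted p of 0.256 to 0.969, edgeR). The part of the eye genes in the changes of the scarce odorant-binding protein genes was not tested.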

How the data were processed

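RNA of whole antennae was sequenced after poly(A) selection from 100 ng of total RNA, with a kit that preserves strand, per the labels' protocols. The authors deposited unnormalized counts of reads per gene, with a file for each sample, followed by 5 summary lines that name no gene and were left out of library sizes (13.1% to 13.8% of listed reads). The submitters' processing notes name cutadapt 1.8, STAR 2.5.3a, HTSeq 0.9.1 and the build BDGP6; settings, annotation and the use of strand are not given in the sources used here.

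Symbols were found for 17560 of 17698 identifiers. Positions, exon lengths and overlaps came from Ensembl release 115 (BDGP6.54). Genes were kept by filterByExpr, scaled by TMM and tested with edgeR 4.0.16 (quasi-likelihood; R 4.3.3, with limma 3.58.1), with group as the only term. P-values were adjusted over all 9237 tested genes by the Benjamini-Hochberg method, with a threshold of 0.05, and the SE was derived from the F statistic. The fit was tested on simulated data. CPM use the library sizes of the tested genes. Counting intervals are exact (binomial, 95%); they and floors cover counting error only.

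The protocol speaks of pairs of replicates, and samples of the same number shared deviations from the mean of their group (correlations of 0.145, 0.131 and 0.119 across 8103 genes), so the replicate block was run as an alternative, beside other scalings, DESeq2 1.42.0, limma voom, filters on low counts and leaving out each sample. The genes described were all members with a mean of 10 or more counts. Members and lists were chosen with earlier results of these data known, and sensillum classes are background knowledge. From the lists only genes that bear on a result are named.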

Additional observations from a re-analysis of the deposited data

How the results depend on the processing

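Of the 14 odorant-binding protein genes that passed, 13 passed in all 15 alternatives and *Obp84a* in 12, and no gene that passed changed sign. The 13 include *Obp50e* and *Obp47b*, which passed the filter of the main fit only through their level in E93RNAi. Of the 14 that did not, 7 passed in at least 1 alternative and 7 in none. The count was 14 to 19 with other scalings, tools and filters and 13 at an adjusted p-value under 0.01. It was 13 to 18 when each sample was left out in turn. The replicate block added *Obp19a*, *Obp19d*, *Obp56e*, *Obp57c* and *Obp83b*, all with absolute log2 fold changes of at most 0.25, and changed no other call. Without a filter on low counts 19 of 46 genes passed, against 2396 of 13680 among all genes. The 19 included *Obp83ef*, a gene near 0, with 0 to 1 counts per sample in control and 4, 14 and 4 in E93RNAi. Over all genes 2248 passed; leaving out each sample gave 1711 to 2155, and an adjusted p-value under 0.01 left 1482, the stricter threshold being the cause. The difference in the summed level was 0.443 percentage points, and 0.339 to 0.541 without each sample in turn. Depth limits the 24 genes with a mean under 10 counts, which the filter left untested.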
